A study of Mus musculus with 60 samples.

Results

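The transcription factors that carry cells through epithelial-mesenchymal transition (EMT) were described in single PyMT-Bo1 breast cancer cells recovered from mouse bone. The 9 genes chosen by name were *Snai1*, *Snai2*, *Zeb1*, *Zeb2*, *Twist1*, *Twist2* and *Prrx1*, which drive the transition, and *Grhl2* and *Ovol1*, which hold cells in the epithelial state. They are 9 of the 47729 mouse genes in the deposited table, and all 9 have an entry there. PyMT-Bo1 is a mouse breast cancer line of C57BL6 background carrying the polyoma middle T oncogene. It was tri-labeled with luciferase, an H2B-mApple nuclear marker and the surface marker Thy1.1, stained with the membrane dye Vybrant DiD, and delivered by intracardiac injection into wild-type C57BL6 mice. Cells were sorted 1 per well from the femurs and tibias of 5 mice, harvested 11 days after injection. The comparison asks how cells that kept the dye (DiD intensity High, called DiD+ or dormant, 32 cells) differ from cells that lost it by dividing (DiD intensity Low, called DiD- or proliferative, 28 cells). The mice were female and 8 to 10 weeks old. Sorting used Thy1.1 to enrich tumor cells and a CD45 stain to remove hematopoietic cells.

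No label ties a cell to a mouse, so a group counted as a single sample, and DiD+ and DiD- could not be tested against each other. Levels are therefore counts summed over the cells of a group, per 1000000 counts (CPM), with exact 95% Poisson intervals that cover counting error only. Differences are log2 ratios of DiD+ over DiD- with 1 CPM added to each side, which understates the ratio of low genes, and none has a replicate check. Total counts per cell ran from 2276789 to 7794219 in DiD+ cells (median 4653711) and from 2624405 to 6199108 in DiD- cells (median 4440161). Where a group had a count of 0, 3 counts were taken as the limit, which is 0.0205 CPM in DiD+ and 0.0251 CPM in DiD-. This limit covers counting error only, and not RNA missed in a cell or the choice of cells. Counts of a transgene were present in 31 of 32 DiD+ and 28 of 28 DiD- cells. In 6 DiD+ wells (cells 19, 21, 24, 30, 37 and 88) and 1 DiD- well (cell 84) over 50% of 13 macrophage markers had at least 10 counts, and these wells are called macrophage-marker wells. The summed CPM of the 13 markers ranged from 0 to 19306 in DiD+ cells (median 44.5) and from 0 to 1579 in DiD- cells (median 24.5). By the same measure 1 DiD+ well (cell 31) held stromal markers, and 0 wells held endothelial, osteoblast, osteoclast or lymphoid markers. Wells 19, 30, 37, 44, 84 and 86 passed for erythroid markers, well 84 for neutrophil markers and well 29 for megakaryocyte markers.

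In EMT, epithelial cells give up their junctions and keratin-rich architecture and take on a motile, matrix-producing state. The zinc-finger repressors Snail (*Snai1*) and Slug (*Snai2*) and the paired zinc-finger, homeodomain proteins Zeb1 and Zeb2 bind E-box sequences in promoters such as that of E-cadherin and recruit corepressors there. Twist1 and Twist2 are basic helix-loop-helix proteins, Prrx1 is a homeodomain protein, and Grhl2 and Ovol1 oppose Zeb and Snail proteins in epithelial cells.

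The 250 bases before the start of *Snai1* and of 4 genes at the epithelial or mesenchymal end of the transition are printed because the E-box read by Snail, Slug and Zeb proteins lies in some of them. The sequences are RefSeq promoters of GRCm38.p6, written 5′ to 3′ on the gene's own strand, and capitals mark CAGGTG or its reverse complement CACCTG.
Krt8 (chr15:102004343-102004592, minus strand): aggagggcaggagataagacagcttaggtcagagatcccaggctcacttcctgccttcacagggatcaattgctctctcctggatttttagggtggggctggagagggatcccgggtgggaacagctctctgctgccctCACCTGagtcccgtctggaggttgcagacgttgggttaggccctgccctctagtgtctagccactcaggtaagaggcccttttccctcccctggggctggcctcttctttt
Krt18 (chr15:102027966-102028215, plus strand): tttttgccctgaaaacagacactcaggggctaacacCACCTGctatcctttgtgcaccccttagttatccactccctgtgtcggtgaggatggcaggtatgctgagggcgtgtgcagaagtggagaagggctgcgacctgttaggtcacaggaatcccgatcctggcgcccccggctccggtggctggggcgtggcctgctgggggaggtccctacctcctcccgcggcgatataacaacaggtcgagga
Epcam (chr17:87635729-87635978, plus strand): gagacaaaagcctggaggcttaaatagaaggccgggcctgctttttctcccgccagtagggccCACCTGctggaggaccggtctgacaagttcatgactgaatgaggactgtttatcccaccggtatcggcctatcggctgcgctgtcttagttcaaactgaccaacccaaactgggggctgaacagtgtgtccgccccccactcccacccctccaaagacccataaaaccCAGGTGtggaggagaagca
Snai1 (chr2:167537945-167538194, plus strand): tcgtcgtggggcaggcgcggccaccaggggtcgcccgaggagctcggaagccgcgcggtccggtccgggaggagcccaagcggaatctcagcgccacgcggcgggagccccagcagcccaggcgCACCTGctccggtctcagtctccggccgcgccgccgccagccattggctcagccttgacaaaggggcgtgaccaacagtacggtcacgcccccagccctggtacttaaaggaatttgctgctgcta
Vim (chr2:13574061-13574310, plus strand): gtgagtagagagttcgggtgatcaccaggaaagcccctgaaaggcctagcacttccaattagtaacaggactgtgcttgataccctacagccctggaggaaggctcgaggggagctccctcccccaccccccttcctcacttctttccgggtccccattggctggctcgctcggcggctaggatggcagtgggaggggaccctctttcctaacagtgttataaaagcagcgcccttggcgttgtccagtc
The motif began 111 bases before the start of *Krt8*, 214 bases before that of *Krt18*, 187 and 19 bases before that of *Epcam* and 126 bases before that of *Snai1*, and *Vim* had 0 matches. The motif is a member of the wider E-box family CANNTG.

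Across all RefSeq promoters, from 250 bases before to 50 bases after the start, 20.2% (6640 of 32851) held the motif on either strand. Counted by gene, it was present for 22.6% of 27025 genes. Of the 40 epithelial genes listed for this description, 26 had a RefSeq promoter and 21 of these held the motif (80.8%). Of the 42 mesenchymal genes, 26 had a promoter and 2 held it (7.69%). Among the members, 5 of 9 had a promoter entry (*Snai1*, *Zeb2*, *Twist1*, *Twist2* and *Prrx1*) and 1, *Snai1*, held the motif. A match describes letters only and no binding was measured. The lists were chosen by name for their part in EMT, which may favor genes already known as targets of these factors. The shares are therefore descriptions of the lists and no test.

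**Figure D1:**
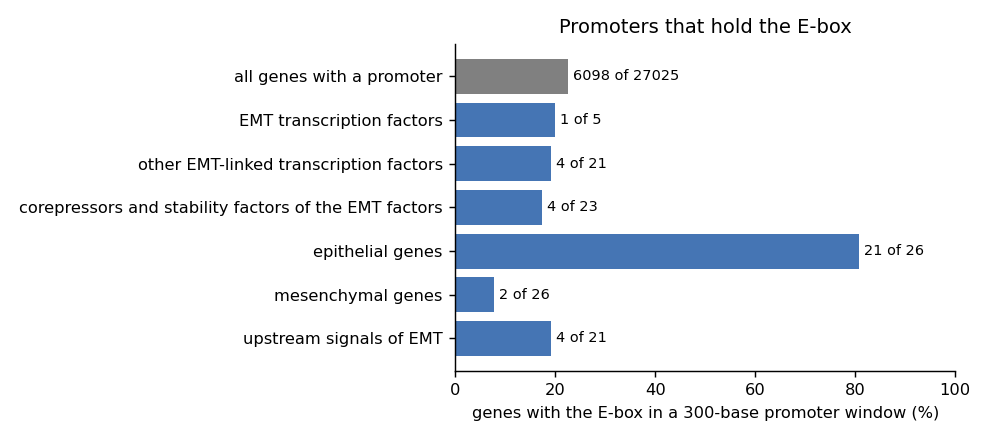
Percentage of genes (horizontal axis) with the E-box CAGGTG or CACCTG in at least 1 RefSeq promoter window of 300 bases, for all genes (grey) and for each gene list (blue), with the number of genes beside each bar. The epithelial list stands at 80.8% and the mesenchymal list at 7.69%, beside 22.6% of all genes; the lists were chosen by name, so the shares are no test.

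Of the 9 members, 6 were detected in many cells of both groups, 2 in a single cell each and 1 in no cell. *Twist1* was the most widely detected, with counts in 58 of 60 cells, followed by *Twist2* in 53, *Snai1* and *Zeb1* in 52 each, *Zeb2* in 38 and *Snai2* in 25. Of the 7 members with at least 1 CPM in a group, 2 (*Snai2* and *Zeb2*) were over 2-fold higher in DiD+ and 1 (*Grhl2*, from a single cell) was over 2-fold lower. Over all 12432 genes with at least 1 CPM, 12.1% were over 2-fold higher and 4.86% over 2-fold lower. The median log2 ratio of the 7 members was 0.44, beside 0.04 for all of these genes (quartiles -0.29 and 0.46), and 4 of the 7 ratios were above 0, beside 53.2% of all genes.

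**Figure D2:**
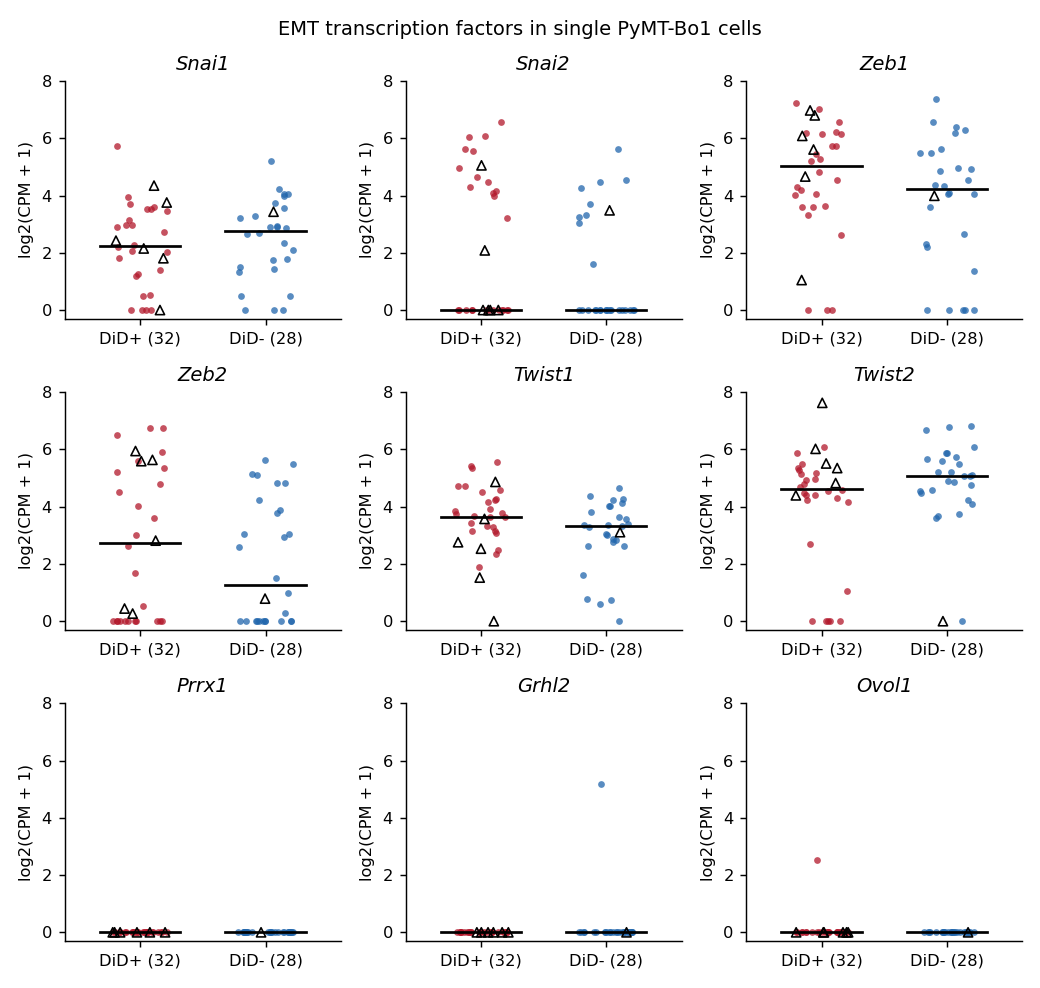
Level of each member in each cell, as log2(CPM + 1) on the vertical axis, for DiD+ (red, 32 cells) and DiD- (blue, 28 cells). Open triangles are the macrophage-marker wells and black bars are group medians; the 2 groups overlap for every member, and the median of *Snai2* lies at 0 in both.

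*Snai2* and *Zeb2* had the 2 largest ratios of the members. *Snai2* (chr16:14705852-14709385, plus strand, GRCm38) encodes Slug, a repressor tied to mammary progenitor cells. Its summed level was 14.5 CPM (interval 13.9 to 15.1) in DiD+ and 5.82 CPM (5.40 to 6.27) in DiD-, a log2 ratio of 1.18.

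The gene was either absent or well counted. It had counts in 15 of 32 DiD+ cells (46.9%, exact Clopper-Pearson interval 29.1 to 65.3%) and in 10 of 28 DiD- cells (35.7%, 18.6 to 55.9%), and these intervals overlap. The fewest counts in a cell with any were 16 in DiD+ and 10 in DiD-. Among the cells with counts, the level ran from 3.24 CPM (cell 30) through a median of 23.9 CPM to 94.2 CPM (cell 80) in DiD+. In DiD- it ran from 2.08 CPM (cell 39) through a median of 11.2 CPM to 48.3 CPM (cell 27). Both the share of cells with counts and the median level within them were higher in DiD+. Cell 27 alone held 34.9% of the DiD- counts, and cell 80 held 16.6% of the DiD+ counts. The log2 ratio was 0.97 without cell 80, below the 2-fold line, and 1.64 without cell 27. Without the 7 macrophage-marker wells it was 1.39.

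The cells are numbered in 2 runs in the labels, 17 to 46 and 63 to 92, and the labels do not say what the runs stand for. Of the 6 widely detected members, *Snai2* had the ratio that differed most between the runs. Among cells 17 to 46 it had counts in 6 of 18 DiD+ and 6 of 12 DiD- cells, with summed levels of 9.58 and 9.001 CPM and a log2 ratio of 0.08. Among cells 63 to 92 it had counts in 9 of 14 DiD+ and 4 of 16 DiD- cells, with summed levels of 21.4 and 3.20 CPM and a log2 ratio of 2.42. The first run held 5 of the 6 DiD+ macrophage-marker wells. What the runs contribute to the *Snai2* ratio was not tested.

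*Zeb2* (chr2:44983632-45117395, minus strand) encodes a zinc-finger, homeodomain repressor that acts in EMT and also in myeloid cells, so its level was read beside the macrophage markers. Its summed level was 24.95 CPM (24.1 to 25.8) in DiD+ and 9.68 CPM (9.13 to 10.3) in DiD-, a log2 ratio of 1.28. It had counts in 21 of 32 DiD+ cells (65.6%, 46.8 to 81.4%) and in 17 of 28 DiD- cells (60.7%, 40.6 to 78.5%). With every cell thinned to 2200000 counts, these numbers were 19 and 16. The DiD+ cells spanned 0 to 107 CPM (median 5.59, highest in cell 17) and the DiD- cells 0 to 48.4 CPM (median 1.42, highest in cell 20).

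The 6 DiD+ macrophage-marker wells, of 32 DiD+ cells, held 20.7% of the *Zeb2* counts of that group. Their total counts were 5588437 (cell 19), 4940528 (cell 30), 4806884 (cell 37), 4806432 (cell 24), 4685171 (cell 21) and 4313301 (cell 88). The DiD+ group held 146074944 counts, with a median of 4653711 per cell. A share of *Zeb2*, or of another member, in these wells therefore includes their share of all reads. The *Zeb2* levels of these wells were 60.5 CPM in cell 24, 48.7 in cell 88, 47.2 in cell 21, 6.03 in cell 37, 0.358 in cell 19 and 0.202 in cell 30. Cell 24 also had the highest macrophage-marker sum (19306 CPM). The 3 cells with the most *Zeb2* (17, 36 and 25, at 107, 107 and 89.7 CPM) were not among these wells. Over 60 cells, Spearman's rho of *Zeb2* with the macrophage-marker sum was 0.22, the highest of the 6 widely detected members. Within a group it was not the highest. In DiD+ cells *Zeb2* was at 0.23, and the 6 members ran from -0.34 (*Twist1*) to 0.33 (*Twist2*). In DiD- cells *Zeb2* was at 0.18, and they ran from -0.29 (*Zeb1*) to 0.21 (*Twist1*). What macrophage RNA contributes to the *Zeb2* level was not tested. Without the 7 wells the log2 ratio was 1.24. Leaving out any 1 cell kept it between 1.10 (without cell 17) and 1.49 (without cell 39). It was 0.82 among cells 17 to 46 and 1.85 among cells 63 to 92. The antisense gene *Zeb2os* overlaps 653 bases of *Zeb2* exons and had 167 counts in 20 cells, and the library kit marks no strand, so reads from the shared bases cannot be told apart.

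*Zeb1* and *Twist1* had smaller ratios in the same direction. *Zeb1* (chr18:5591860-5775467, plus strand), the relative of *Zeb2* most often tied to carcinoma EMT, had the highest summed CPM of the members in DiD+. Its summed level was 44.3 CPM (43.3 to 45.4) in DiD+ and 32.5 CPM (31.5 to 33.5) in DiD-, a log2 ratio of 0.44. Counts were present in 29 of 32 DiD+ and 23 of 28 DiD- cells. The DiD+ cells spanned 0 to 148 CPM with a median of 31.7, and the DiD- cells 0 to 165 CPM with a median of 17.6. The single highest cell was therefore DiD- (cell 32, with 22.4% of the DiD- counts), although the DiD+ median was higher. The macrophage-marker wells, 6 of the 32 DiD+ cells, held 28.9% of the DiD+ counts. The log2 ratio without the wells of both groups was 0.25. The gene *Gm10125* overlaps 198 bases of its exons on the other strand.

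*Twist1* (chr12:33957671-33959829, plus strand), a mesoderm regulator studied in breast cancer metastasis, was the most evenly spread of the members. Its summed level was 14.8 CPM (14.2 to 15.5) in DiD+ and 9.62 CPM (9.07 to 10.2) in DiD-, a log2 ratio of 0.58. Counts were found in 31 of 32 DiD+ cells, from 0 to 45.7 CPM with a median of 11.6. In DiD- they were found in 27 of 28 cells, from 0 to 23.9 CPM with a median of 8.91. Leaving out any 1 cell kept the log2 ratio between 0.50 and 0.65, the narrowest such range of the 6 widely detected members. The macrophage-marker wells, 6 of the 32 DiD+ cells, held 11.3% of its DiD+ counts. Without the wells of both groups the log2 ratio was 0.71.

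*Snai1* and *Twist2* were not higher in the DiD+ sums. *Snai1* (chr2:167538195-167542814, plus strand) encodes Snail, a short-lived repressor of E-cadherin. Its summed level was 6.73 CPM (6.32 to 7.16) in DiD+ and 7.22 CPM (6.75 to 7.72) in DiD-, a log2 ratio of -0.09 with overlapping intervals. Of 32 DiD+ cells 27 had counts, from 0 to 51.6 CPM with a median of 3.70. Of 28 DiD- cells 25 had counts, from 0 to 35.6 CPM with a median of 5.82. Single cells set its sign, with a log2 ratio of -0.36 without cell 75 and 0.12 without cell 89.

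*Twist2* (chr1:91801461-91848028, plus strand), the close relative of *Twist1*, had the highest summed CPM of the members in DiD-. Its summed level was 31.6 CPM (30.6 to 32.5) in DiD+ and 40.5 CPM (39.3 to 41.6) in DiD-, a log2 ratio of -0.35. It had counts in 27 of 32 DiD+ cells, from 0 to 197 CPM with a median of 23.6, and in 26 of 28 DiD- cells, from 0 to 112 CPM with a median of 32.3. The macrophage-marker wells, 6 of the 32 DiD+ cells, held 41.2% of its DiD+ counts, the largest such share of the members. Cell 21, one of them, had the 197 CPM and 19.98% of the DiD+ counts by itself. Without cell 21 the log2 ratio was -0.61, and without the 7 wells it was -0.81. It was 0.03 among cells 17 to 46, where 5 of the 6 DiD+ wells fall, and -1.06 among cells 63 to 92. The antisense gene *Gm29100* overlaps 1477 bases of *Twist2* exons, and the estimated counts of *Twist2* were not whole numbers in 7 cells.

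**Figure D3:**
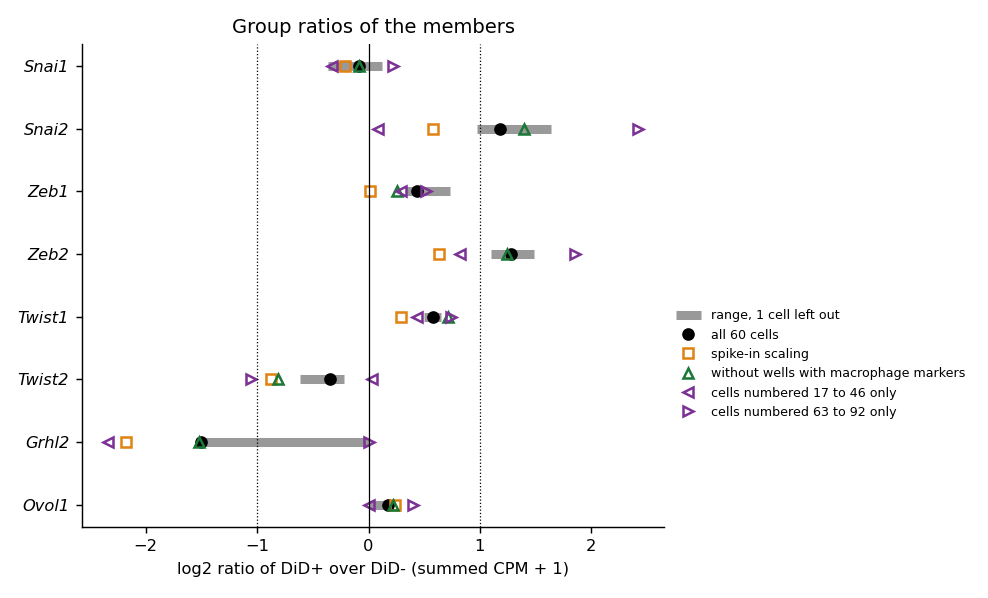
Log2 ratio of DiD+ over DiD- (horizontal axis, summed CPM + 1) for the 8 members with any count. Black points are all 60 cells, grey bars the range when 1 cell is left out, and open symbols the spike-in scaling, the sums without macrophage-marker wells and the sums within each run of cell numbers; dotted lines mark 2-fold. *Snai2*, *Zeb1*, *Zeb2* and *Twist1* stay above 0 under all of these, *Zeb1* by 0.01 with spike-in scaling, while *Snai1* and *Twist2* lie on both sides of 0.

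Each ratio also depends on how cells are scaled. Scaling each cell by its spike-in RNA moved the median log2 ratio of all genes from 0.04 to -0.34. Relative to that shift, *Zeb2* stood at 0.97, *Snai2* at 0.92, *Twist1* at 0.63, *Zeb1* at 0.35, *Snai1* at 0.13 and *Twist2* at -0.53. On the spike-in scale itself *Zeb1* was at 0.01 and *Snai2* and *Zeb2* at 0.58 and 0.63, so 0 members were over 2-fold higher and 1 was over 2-fold lower.

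*Prrx1*, *Grhl2* and *Ovol1* were at or near 0. *Prrx1* (chr1:163245119-163313710), a homeodomain factor of mesenchymal cells, had 0 counts in all 60 cells. Its relative *Prrx2*, named after its values were seen, had counts in all 60 cells, with a DiD+ level of 284 CPM and a DiD- level of 161 CPM (log2 ratio 0.82). *Grhl2* (chr15:37233036-37363569), an activator of epithelial junction genes, had 219 counts in DiD- cell 28 (35.3 CPM in that cell) and 0 in the other 59 cells. Summed over the group this was 1.83 CPM, which is 89.2 times the DiD+ limit of 3 counts and came from that 1 cell. Without cell 28 the level was 0 in both groups. That cell also held counts of *Zeb1* (29.4 CPM), *Zeb2* (12.7), *Twist1* (10.8) and *Twist2* (32.4), and 0 of *Snai1* and *Snai2*. *Ovol1* (chr19:5549136-5560646), a repressor of *Zeb1* in epithelial cells, had 19 counts in DiD+ cell 64 and 0 elsewhere. Its group level was 0.130 CPM in DiD+, which is 5.18 times the DiD- limit and came from that 1 cell. Both limits cover counting error only.

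Levels of different genes were compared per kilobase of annotated exons. In DiD+ the order was *Twist2* (9.94 CPM per kb), *Twist1* (9.11), *Snai2* (7.16), *Zeb1* (4.32), *Snai1* (4.15) and *Zeb2* (1.25). In DiD- it was *Twist2* (12.8 CPM per kb), *Twist1* (5.91), *Snai1* (4.46), *Zeb1* (3.17), *Snai2* (2.88) and *Zeb2* (0.486). In these sums *Snai2* took the third place in DiD+ and the fifth in DiD-, with *Twist2* highest and *Zeb2* lowest of the 6 in both. By the median over cells *Snai2* was lowest in both groups, at 0 CPM per kb. *Zeb2* was at 0.281 in DiD+ and 0.0711 in DiD- by that measure. The counting intervals of *Zeb1* (4.21 to 4.43) and *Snai1* (3.90 to 4.42) overlapped in DiD+, and those of *Zeb1* (3.07 to 3.27) and *Snai2* (2.67 to 3.10) overlapped in DiD-. The ranges over cells of all 6 overlapped. Per kilobase of the principal transcript, *Zeb1* was higher, at 7.64 in DiD+, above *Snai2* (7.16), and at 5.60 in DiD-, above *Snai1* (4.46).

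Most cells held several members at once. Of the 6 widely detected genes, the median number with counts was 5 per cell in both groups, from 2 to 6 in DiD+ and from 1 to 6 in DiD-. All 6 were present in 6 DiD+ and 7 DiD- cells. The fewest were in DiD+ cell 68 (*Zeb1* and *Twist1*) and DiD- cell 92 (*Twist1*, with 2 counts). The summed level of these 6 genes had a median of 136 CPM per DiD+ cell (19.8 to 314) and 99.6 CPM per DiD- cell (0.703 to 264).

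The levels of the members showed little common order across cells. Over 60 cells, Spearman's rho between pairs of members ran from -0.08 to 0.18 with a median of 0.09 over 15 pairs, and without the macrophage-marker wells from -0.05 to 0.23. *Twist1* and *Twist2* were both present in 51 cells, and all 25 cells with *Snai2* also had *Twist1*, which is itself in 58 of 60. The cells share library preparation, depth and many zeros, so these rhos are given as descriptions. Against the summed level of S phase and G2/M genes, the highest rho was that of *Snai2* in DiD- cells (0.62, 28 cells, of which 10 have *Snai2*). In DiD+ cells that of *Snai2* was -0.12 and that of *Zeb1* was -0.44 (32 cells). The G2/M sum reached 20554 CPM in DiD+ (cell 67) and 17683 CPM in DiD- (cell 65), so the DiD+ label does not exclude cycle RNA. With the number of genes detected, the rho in DiD- cells was 0.44 for *Zeb2*, 0.41 for *Snai2* and 0.40 for *Zeb1*. It was -0.004 for *Snai1*, -0.12 for *Twist1* and -0.23 for *Twist2*. In DiD+ cells this rho ran from -0.04 (*Snai2*) to 0.29 (*Zeb2*), with *Zeb1* at 0.03. Rhos of the widely detected members with mesenchymal genes lay on both sides of 0. Against *Fn1*, the gene of fibronectin, they ran from -0.29 (*Zeb2*) to 0.43 (*Zeb1*) in DiD+ cells. In DiD- cells they ran from -0.04 (*Snai2*) to 0.38 (*Snai1*), with *Zeb1* at 0.12. Against *Vim* they ran from -0.24 (*Twist2*) to 0.27 (*Twist1*) in DiD+ and from -0.12 (*Zeb1*) to 0.29 (*Zeb2*) in DiD- cells. Against *Cdh2* they ran from -0.19 (*Twist1*) to 0.17 (*Zeb1*) in DiD+ and from -0.44 (*Snai1*) to 0.10 (*Zeb1*) in DiD- cells.

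**Figure D4:**
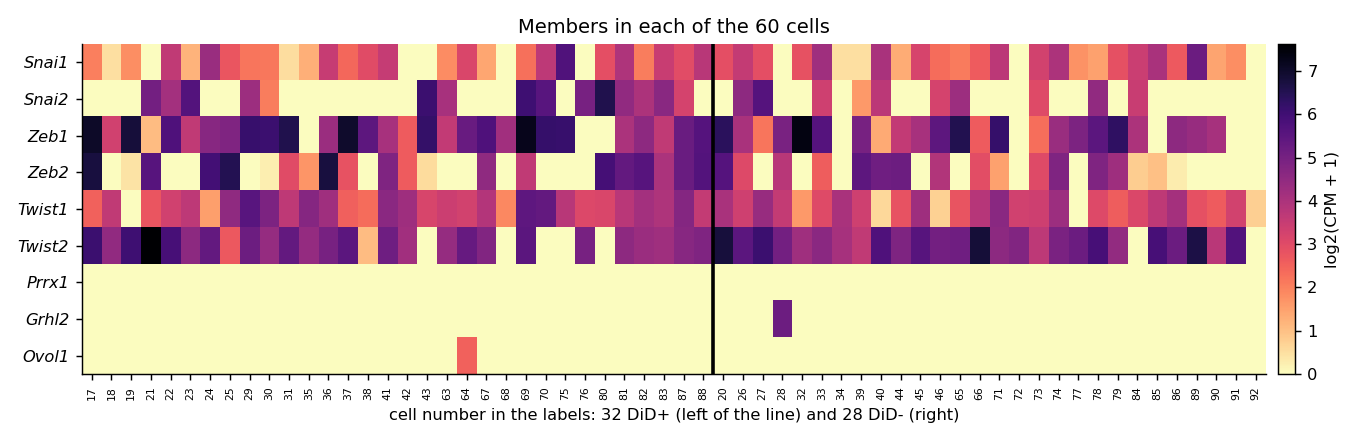
Level of each member (rows) in each of the 60 cells (columns, ordered by cell number within DiD+ on the left and DiD- on the right), as log2(CPM + 1) on a color scale from 0. *Twist1*, *Twist2* and *Zeb1* fill most columns, *Snai2* is at 0 in 35 cells, and *Grhl2* and *Ovol1* appear in 1 cell each.

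For each widely detected member, the 3 genes of highest rho across 60 cells were taken from 11767 genes with counts in at least 10 cells. For *Snai1* they included *Iars2* (0.50) and *Rhoj* (0.48), and for *Snai2* they were *Abcc5* (0.55), *Taf3* (0.54) and *Ech1* (0.49). *Zeb1* was most like *Snx15*, *Nfib* and *Aebp1* (0.48 each), and *Zeb2* most like *Armc8* (0.47), *Tgfbr1* (0.46) and *Cenpk* (0.46). *Twist1* was most like *Ttc8* (0.46), *Ccdc90b* (0.45) and *Rab40c* (0.45), and *Twist2* most like *Tsr3* (0.47), *Arpc4* (0.46) and *Tslp* (0.45). When the macrophage-marker wells were left out, 4 of the 18 genes stayed among the 3 highest of their member and 15 among the 20 highest. *Tgfbr1*, the kinase receptor for TGF-beta, is also on the list of upstream signals.

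Many of the epithelial genes listed had no counts in either group. Of 40 listed genes, 19 had 0 counts in all 60 cells, among them *Epcam*, the keratins *Krt5*, *Krt7* and *Krt19*, and *Esrp1*, a splicing factor of epithelial cells. *Cdh1*, which encodes E-cadherin, had a single count in 1 DiD+ cell. *Krt8* and *Krt18*, a keratin pair of simple epithelia, were high. *Krt8* had counts in all 60 cells, with a DiD+ level of 1831 CPM and a DiD- level of 3395 CPM (log2 ratio -0.89), and *Krt18* was at 728 and 1578 CPM (-1.11, and -0.98 without cell 27). Both keratin promoters printed above hold the E-box, as do 80.8% of the epithelial genes with a promoter. Rhos of the widely detected members with *Krt8* ran from -0.13 (*Twist1*) to 0.16 (*Zeb2*) in DiD+ cells. In DiD- cells they ran from -0.33 (*Zeb1*) to 0.12 (*Twist2*). With *Krt18* they ran from -0.15 (*Twist1*) to 0.25 (*Twist2*) in DiD+ and from -0.33 (*Zeb1*) to 0.07 (*Twist1*) in DiD- cells. What the motif contributes to the keratin levels was not tested. Over all genes, 12.1% were over 2-fold higher and 4.86% over 2-fold lower. Of the 13 epithelial genes with at least 1 CPM, 4 were over 2-fold higher and 1 (*Krt18*) over 2-fold lower. Their median log2 ratio was 0.41 and ran from 0.14 without DiD+ cell 21 to 0.92 without DiD- cell 40. Of the 4, the junction adhesion gene *F11r* was present in 25 of 32 DiD+ and 15 of 28 DiD- cells (38.8 and 12.9 CPM, log2 ratio 1.52). The others, *Cd24a*, *Tjp3* and *Llgl2*, named after their values were seen, came from 1 or 2 DiD+ cells each. All counts of *Cd24a* were in macrophage-marker wells, and without those wells 3 genes were over 2-fold lower, *Krt18* (-1.41) and, named after their values were seen, *Ocln* (-2.14, beside 0.41 with the wells) and *Krt14* (-1.23, beside -0.17). The plaque genes *Jup* (0.90) and *Pkp3* (0.32) and the tight junction gene *Tjp1* (0.12) were under the line.

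Of the 42 mesenchymal genes, 35 had at least 1 CPM. Among these 35, 12 were over 2-fold higher and 0 over 2-fold lower, beside 12.1% and 4.86% of all genes. Their median log2 ratio was 0.38. Without the macrophage-marker wells 1 was over 2-fold lower (*Axl*, -1.01), and without DiD+ cell 41 there were 9 higher and the median was 0.07. The list holds *Postn* and *Pdgfrb*, which the paper reported as higher in DiD+ from these same cells. It also holds *Thy1*, the gene of the introduced sorting marker. The share past 2-fold is therefore a description of the list and no test. *Vim*, the intermediate filament of mesenchymal cells, reached 3815 CPM in the DiD+ sum and 4165 CPM in the DiD- sum (log2 ratio -0.13) with counts in every cell. *Fn1* was at 2796 and 1858 CPM (0.59). *Cdh2*, which encodes N-cadherin, was at 60.7 and 109 CPM (-0.83), and the fibronectin receptor subunit *Itga5* (-0.77) and the receptor kinase *Axl* (-0.75) were also lower in DiD+.

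Among list genes that reached 10 CPM in either group and were counted in 10 or more cells of the higher one, the largest ratios were those of the matrix genes *Postn* (295 and 8.37 CPM, log2 ratio 4.98), *Col3a1* (197 and 28.3 CPM, 2.76) and *Col6a2* (44.6 and 15.7 CPM, 1.45). *Postn* and *Col3a1* rested on few cells. *Postn* had counts in 11 of 32 DiD+ and 4 of 28 DiD- cells, and DiD- cell 34 held 75.3% of its DiD- counts. Of the DiD+ counts of *Col3a1*, 64.8% were in cell 41, without which its log2 ratio was 1.32. With any 1 cell left out, the log2 ratio ran from 4.61 to 6.55 for *Postn* and from 1.14 to 1.82 for *Col6a2*. Cell 31, the well with 6 of 10 stromal markers, held 21.1% of the DiD+ counts of *Col6a2*. Among the members it had *Zeb1* at 93.6 CPM, *Twist2* at 39.97, *Twist1* at 11.4, *Zeb2* at 7.03, *Snai1* at 0.439 and 0 of *Snai2*.

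**Figure D5:**
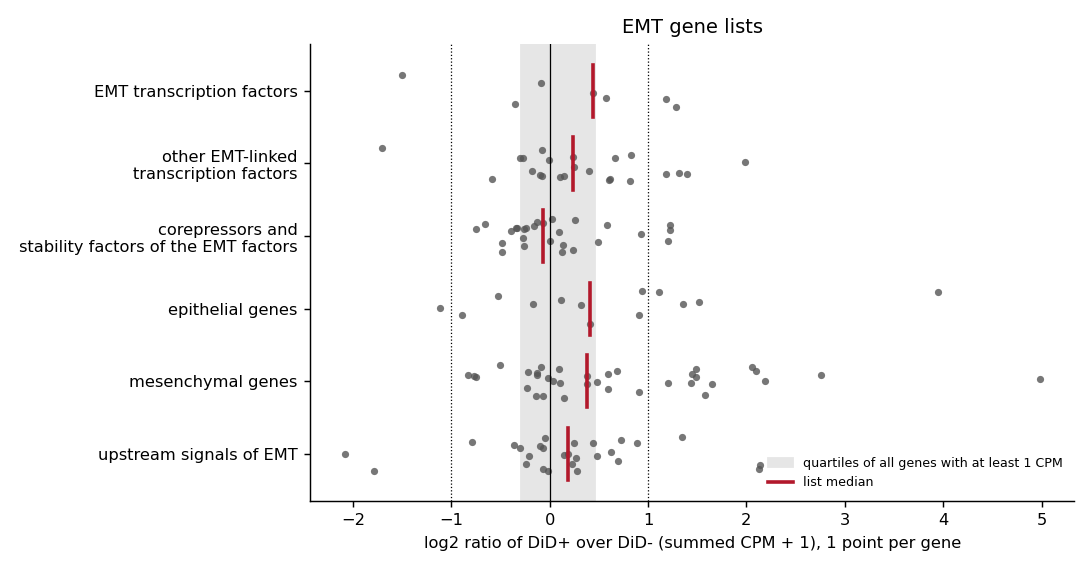
Log2 ratio of DiD+ over DiD- (horizontal axis, summed CPM + 1) for each gene with at least 1 CPM in a group, by list, with list medians in red and the quartiles of all such genes (-0.29 and 0.46) as a grey band. Dotted lines mark 2-fold; each list spreads to both sides of 0, and the mesenchymal list reaches furthest to the right, at 4.98.

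Other transcription factors linked to EMT varied in both directions. Of 35 genes, 23 had at least 1 CPM. Among these 23, 4 were over 2-fold higher and 1 over 2-fold lower, beside 12.1% and 4.86% of all genes. Their median log2 ratio was 0.24. The inhibitors of helix-loop-helix factors *Id2* (164 and 40.6 CPM, log2 ratio 1.99) and *Id3* (1198 and 481 CPM, 1.31) were higher in DiD+. Cell 19, a macrophage-marker well, held 26.5% of the DiD+ counts of *Id2*, and its log2 ratio was 1.31 without the 7 wells. The forkhead factor *Foxc1* was at 31.7 and 13.4 CPM (1.18). The fourth gene, *Tbx2*, named after its values were seen, came from 1 cell. *Tead4*, a partner of Yap and Taz, was lower (3.44 and 13.5 CPM, -1.70), and *Tcf3*, a partner of the Twist proteins (-0.59), and *Id4* (-0.30) were the next lowest. *Snai3*, *Ovol2* and *Grhl3*, relatives of the members, had 0 counts in 60 cells.

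Corepressors of Snail and Zeb proteins and the enzymes that set their stability were measured throughout, with all 27 genes at 1 CPM or more. Of these, 3 were over 2-fold higher and 0 over 2-fold lower, beside 12.1% and 4.86% of all genes. Their median log2 ratio was -0.07. The H3K9 methyltransferase gene *Ehmt2* (58.9 and 24.6 CPM, log2 ratio 1.23) and *Fbxo11* (23.9 and 9.68 CPM, 1.22), whose ubiquitin ligase targets Snail, were higher in DiD+. The ubiquitin ligase gene *Mdm2* (323 and 140 CPM, 1.20) rested on cell 36, without which its log2 ratio was 0.59. The lowest were the corepressor *Sin3a* (-0.74), *Fbxo45* (-0.65) and the methyltransferase *Suv39h1* (-0.48).

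Of 31 upstream signals, 27 had at least 1 CPM. Among these 27, 3 were over 2-fold higher and 2 over 2-fold lower, beside 12.1% and 4.86% of all genes. Their median log2 ratio was 0.19. The receptor *Notch1* (25.1 and 4.95 CPM, log2 ratio 2.13) was present in 18 of 32 DiD+ and 6 of 28 DiD- cells, and its ligand *Jag1* (7.93 and 29.8 CPM) went the other way at -1.78. *Tgfbr1* (16.5 and 8.44 CPM, 0.89) and *Smad3* (30.2 and 17.9 CPM, 0.72), which carry the TGF-beta signal that raises Snail and Zeb genes, were under 2-fold higher. The receptor kinase *Met* was at -0.79 and *Smad4* at -0.36. The other 3 genes past the line, *Bmp2* (2.14), *Egfr* (1.35) and *Egf* (-2.08), named after their values were seen, had counts in at most 9 cells of a group. With spike-in scaling, the numbers over 2-fold higher and lower were 3 and 3 for the epithelial genes, 11 and 3 for the mesenchymal genes, 2 and 2 for the other factors and 0 and 1 for the corepressors. What the macrophage-marker wells, the number of cells with counts and the runs of cell numbers contribute to these lists was not tested.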

How the data were processed

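Single PyMT-Bo1 cells from bone were the samples, grouped by the DiD intensity in their labels. Per the authors' methods and labels, STAR placed the reads on GRCm38/mm10 (with spike-in and transgene sequences added) and RSEM estimated the counts. The authors deposited these estimated counts as raw values (47825 entries), of which 3.40% were not whole numbers, and a signal table normalized by them with BASiCS (14013 entries, 7 of the 9 members), used here only as an alternative. The labels and the methods name different sequencing instruments and read lengths. There were 0 columns without a sample.

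Estimated counts were rounded to whole numbers, totals covered mouse genes without spike-ins or transgenes, and counts were summed per group. Genes needed at least 1 CPM in a group for a count over 2-fold. The members and gene lists were chosen with earlier results of these data known. The list genes named were the top 3 and bottom 3 by log2 ratio of those reaching 10 CPM in a group and counted in 10 or more cells of their higher group, plus *Cdh1*, *Epcam*, *Krt8*, *Krt18*, *Vim*, *Fn1* and *Cdh2*. A marker was present at 10 counts or more, and a well was called by a list at over 50% of its markers. Thinning drew 2200000 counts per cell. All 60 cells entered every sum, with no doublet filter. Coordinates and exon lengths are from GENCODE vM21 and promoters from RefSeq (GRCm38.p6).

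The alternatives were the mean of per-cell CPM, BASiCS values, spike-in totals, TMM factors (edgeR 4.0.16) and DESeq2 1.42.0 size factors for scaling only, other pseudocounts and minimums, leaving out the macrophage-marker wells or each cell in turn, and, chosen after seeing the data, each run of cell numbers. R 4.3.3 and Python 3.11.15 were used (scipy 1.17.1, numpy 2.4.6, matplotlib 3.10.9, pandas 2.3.3). The steps were tested on simulated counts. One gene that the naming rule takes is not reported here.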

Additional observations from a re-analysis of the deposited data

How the results depend on the processing

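No paired analysis was possible because the labels give no replicate number or mouse that links DiD+ and DiD- cells. With 1 sample per group, no setting can show more than how the values move, and cells with few counts of a gene decide low members. Of the members, 0 were over 2-fold higher with spike-in scaling, with a pseudocount of 10 CPM and among cells 17 to 46, beside 2 in the report, and 0 were over 2-fold lower with a pseudocount of 10 CPM or a minimum of 10 CPM, beside 1. Leaving out 1 cell gave 1 to 2 members higher and 0 to 1 lower. With spike-in scaling, 2 other EMT-linked factors were higher and 2 lower, 0 corepressors and stability factors were higher and 1 lower, and 3 epithelial and 3 mesenchymal genes were lower. With a pseudocount of 10 CPM, 2 other factors were higher and 0 lower, 1 corepressor was higher, 2 epithelial and 5 mesenchymal genes were higher, and 1 upstream signal was lower. With a minimum of 10 CPM, 2 epithelial and 6 mesenchymal genes were higher and 1 upstream signal was lower. Without the macrophage-marker wells, 3 epithelial and 1 mesenchymal genes were lower. Leaving out 1 cell gave 3 to 5 other factors higher and 1 to 2 lower, 2 to 4 corepressors higher and 0 to 1 lower, 3 to 5 epithelial genes higher and 0 to 2 lower, 9 to 14 mesenchymal genes higher and 0 lower, and 3 to 4 upstream signals higher and 2 lower. Pseudocounts and minimums act by construction on low genes. The cause of the other moves was not tested. The sign of the log2 ratio of *Snai2*, *Zeb1*, *Zeb2* and *Twist1* was the same under all 70 settings, that of *Snai1* changed under 2 and that of *Twist2* under 1.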
